A study of Mus musculus with 24 samples.

Results

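The 10 genes described here set up or hold the naive state of T cells or pass on costimulation: the transcription regulators Tcf7, Lef1, Bcl11b, Gata3, Satb1 and Foxp3, the cytokine receptor chain Il7r, and the receptors Cd28, Icos and Ctla4. They were chosen by name. Their values come from every probe whose gene name in the array files was one of these symbols, which gave 15 probes for 10 of the 24325 gene symbols on the array. Where a gene had several probes, the one with the highest mean level stood for it. Testing needed a signal well above the local background on 4 or more arrays within some group, a condition met by 9 of the 10 genes and by 13054 genes in all. Ctla4 was the gene left untested.

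Transcript levels were measured on 1-colour Agilent arrays in whole blood, drawn from 24 male mice of strain 129S/J at 24 h after X rays or sham exposure, with 1 mouse per array. The groups were Parp1-/- mice at 6 Gy (n = 5), Parp1-/- mice that were sham-irradiated (0 Gy, n = 5), and wild-type mice at 0 Gy (n = 5), 6 Gy (n = 5) and 8.8 Gy (n = 4). Parp1 encodes a nuclear enzyme that marks DNA breaks with poly(ADP-ribose). Per the series design, 6 Gy in knockouts and 8.8 Gy in wild type are doses of equal lethality, so the comparisons ask how blood responded to X rays with and without Parp1, at the same dose and at equal lethality. The ages of the mice and the part of Parp1 that the null allele lacks are not given in the sources used here. Whole blood holds many cell types, so fewer cells of a type and less RNA per cell cannot be told apart in any value below.

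As background, naive T cells circulate at rest until their receptor meets antigen. TCF-1 (from Tcf7) and LEF-1 are related DNA-binding factors that commit thymocytes to the T lineage and keep mature cells naive or memory-like, while BCL11B and GATA3 hold T identity and SATB1 organises chromatin loops. The interleukin-7 receptor passes on the survival signal on which resting T cells depend. CD28 gives the costimulatory signal at first activation, ICOS gives one to cells already activated, CTLA-4 competes with CD28 for the same ligands and inhibits, and FOXP3 is the lineage factor of regulatory T cells.

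Bcl11b is shown as the transcription regulator among the 10 with the lowest adjusted p in knockouts (0.00704), chosen after its values were seen. Its brighter probe (mm9 chr12:109153847-109153906, minus strand) holds the codons TGT, TGC and CAC, in capitals, at the spacing of a zinc finger's cysteine pair and first histidine (6 and 36 bases between them). Whether probes lie in coding or untranslated exons is not given, since no annotation of mm9 was used here.
Bcl11b probe: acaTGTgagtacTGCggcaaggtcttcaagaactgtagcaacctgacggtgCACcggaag
Promoters were searched because the genes were lower together. RefSeq start sites of assembly GRCm38.p6 gave 17 promoter sequences for 8 of the 10 genes, none for Cd28 and Icos. Each runs from 250 bases before the start to 50 after it. The motifs searched on both strands were CTTTGAT for TCF-1 and LEF-1, AGATAA for GATA factors, TGTGGTT for RUNX factors and CAGGAAG for ETS factors, and no 2 of them overlapped in the sequences printed. Il7r is shown as the gene with the lowest adjusted p at both wild-type doses among the 10, and Satb1 as the gene that fell least relative to the CD3 chains in 2 of the 3 comparisons, both chosen after their values were seen. Capitals mark CAGGAAG, or CTTCCTG as its reverse complement, and TGTGGTT. Both sequences are printed up to 30 bases after the start. For Satb1, only a promoter sequence that holds the ETS motif was printed, so its marked site was the reason for the choice. No such filter was used for Il7r.
Il7r promoter, GRCm38.p6 chr15:9529847-9530126, minus strand: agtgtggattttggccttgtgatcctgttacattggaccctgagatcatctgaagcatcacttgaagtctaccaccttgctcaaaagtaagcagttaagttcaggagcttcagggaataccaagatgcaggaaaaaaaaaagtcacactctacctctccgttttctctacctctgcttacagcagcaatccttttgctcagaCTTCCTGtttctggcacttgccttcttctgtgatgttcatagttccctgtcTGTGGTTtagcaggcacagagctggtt
Satb1 promoter, GRCm38.p6 chr17:51826559-51826838, minus strand: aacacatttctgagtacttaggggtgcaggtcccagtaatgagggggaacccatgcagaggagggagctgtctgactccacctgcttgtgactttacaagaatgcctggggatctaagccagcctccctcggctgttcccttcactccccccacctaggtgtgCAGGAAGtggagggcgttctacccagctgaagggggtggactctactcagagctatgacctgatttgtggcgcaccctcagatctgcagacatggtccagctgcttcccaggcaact
The ETS motif stood in 4 of the 17 promoters (Lef1, Bcl11b, Il7r and Satb1, 1 each), against 13.3% of 32851 promoters in the whole table. The GATA motif stood in 2 (Lef1 and Foxp3; 11.2% of all), the RUNX motif in 1 (Il7r; 5.27%) and the TCF-1 and LEF-1 motif in 1 (Ctla4; 3.73%). These are matches of letters in a window and no more.

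Levels are given as log2 signal minus the array's 75th percentile, so that 0 is the level of a probe brighter than 75% of the others, and 1 unit is a doubling. Per array, 42.8% to 53.5% of non-control spots were well above background in knockout 6 Gy blood, 36.6% to 41.8% in knockout sham blood, and 42.8% to 57.1%, 43% to 57.8% and 41.3% to 55.4% in wild type at 0, 6 and 8.8 Gy. Knockout sham arrays were the lowest, and the part of this in the knockout response was not tested. Scanning took 4 days over 10 slides, and days and groups went together. Irradiated wild-type arrays were all read on day 3, wild-type sham arrays on day 4, and knockout sham arrays on days 1 and 2. Of the knockout 6 Gy arrays, replicates 1 to 3 were read on day 3, replicate 4 on day 4 and replicate 5 on day 1. Parp1 was not well above background on 4 of 5 knockout 6 Gy arrays and on 5 of 5 knockout sham arrays. It was well above background on 5 of 5, 3 of 5 and 3 of 4 wild-type arrays at 0, 6 and 8.8 Gy. Wild-type 8.8 Gy replicate 4 had Parp1 at -3.95. Between the genotypes Parp1 passed in sham blood (-2.38, limma, adjusted p = 0.0307), but not at 6 Gy (0.0588) or at equal lethality (0.999). As a check of the labels it was therefore weak after irradiation. Knockout 6 Gy replicate 1 went against its label, with Parp1 at -1.67 and well above background, and its values were nearly those of wild-type 8.8 Gy replicate 2 (SD of the log2 differences 0.167 over 10768 probes, against a median of 0.901 over 276 pairs of arrays). Over the 9 tested genes this pair differed by -0.24 to 0.26. The calls on the 10 genes that were lost without these 2 arrays, the nearly equal pair, are named with the arrays left out below. The next closest pair, knockout sham replicates 4 and 5, had an SD of 0.262, and no fit left out both. Liver RNA varied within every group: Alb, the serum albumin gene of liver cells, ranged from -3.39 to 8.18 in knockout 6 Gy, from -3.92 to 8.38 in knockout sham, and from -4.53 to 9.20, -1.65 to 7.78 and -2.23 to 8.47 in wild type at 0, 6 and 8.8 Gy.

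The T cell label was checked against the chains of the CD3 complex, which carries the T cell receptor's signal. Cd3d, Cd3e and Cd3g were well above background on all 24 arrays, and Cd247 on 14. The mean log2 level of these 4 CD3 chains was 0.95 ± 0.43 in knockout 6 Gy and 2.45 ± 0.56 in knockout sham blood (SD, n = 5 each). In wild type it was 2.60 ± 0.31 at 0 Gy, 1.56 ± 0.25 at 6 Gy (SD, n = 5 each) and 0.65 ± 0.42 at 8.8 Gy (SD, n = 4).

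All 9 tested genes were lower on average in irradiated than in sham blood in each genotype and at each dose, and 8 of the 9 passed the test in each comparison. The test was limma on log2 levels over all genes, two-sided, with a Benjamini-Hochberg adjusted p under 0.05 counted as a change. Knockout blood at 6 Gy had 8 genes lower, all but Satb1, where 10.5% of all genes tested were called lower. Wild-type blood at 6 Gy had 8 lower, all but Foxp3 (background 10.9%), and at 8.8 Gy 8 lower, all but Satb1 (background 9.02%). Foxp3 met the condition for testing only through wild-type sham blood (4 of 5 arrays), so its call against that group at 8.8 Gy adds no support. The median log2 difference of the 9 genes was -1.33 in knockouts at 6 Gy, against -0.07 over all genes tested. In wild type it was -1.30 at 6 Gy, against 0.04 over all genes, and -1.50 at 8.8 Gy, against 0.03. In every one of the 9 genes both sham means lay above all 3 irradiated means. No 2 neighbours differed by the test on either side of that gap.

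Slide and scan day could not be told apart from most of these contrasts. With scan day as a fixed term 0 of the 9 genes passed in each of the 3 comparisons, and 56, 15 and 23 of all 13054 genes did. With slide as a fixed term 0 of the 9 passed, and 53, 0 and 0 of all genes. The medians with scan day were -0.67 in knockouts at 6 Gy, and -1.27 and -1.65 in wild type at 6 and 8.8 Gy, with 8, 9 and 9 genes below 0. Wild-type sham arrays shared no day with irradiated wild-type arrays, so that term reaches them only through knockout 6 Gy arrays. Within day 1, the one day with both knockout groups (1 array at 6 Gy against 2 sham), 8 of 9 genes were lower, with a median of -0.67. That comparison called 0 of all 13054 genes, so it says nothing about the stability of the calls. Wild-type 6 and 8.8 Gy blood were set against the same sham arrays. With slide as a random term 6 genes were called lower in knockouts at 6 Gy, and 8 and 6 in wild type at 6 and 8.8 Gy. With the level of hepatocyte markers as a covariate the counts were 8, 8 and 9.

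**Figure D1:**
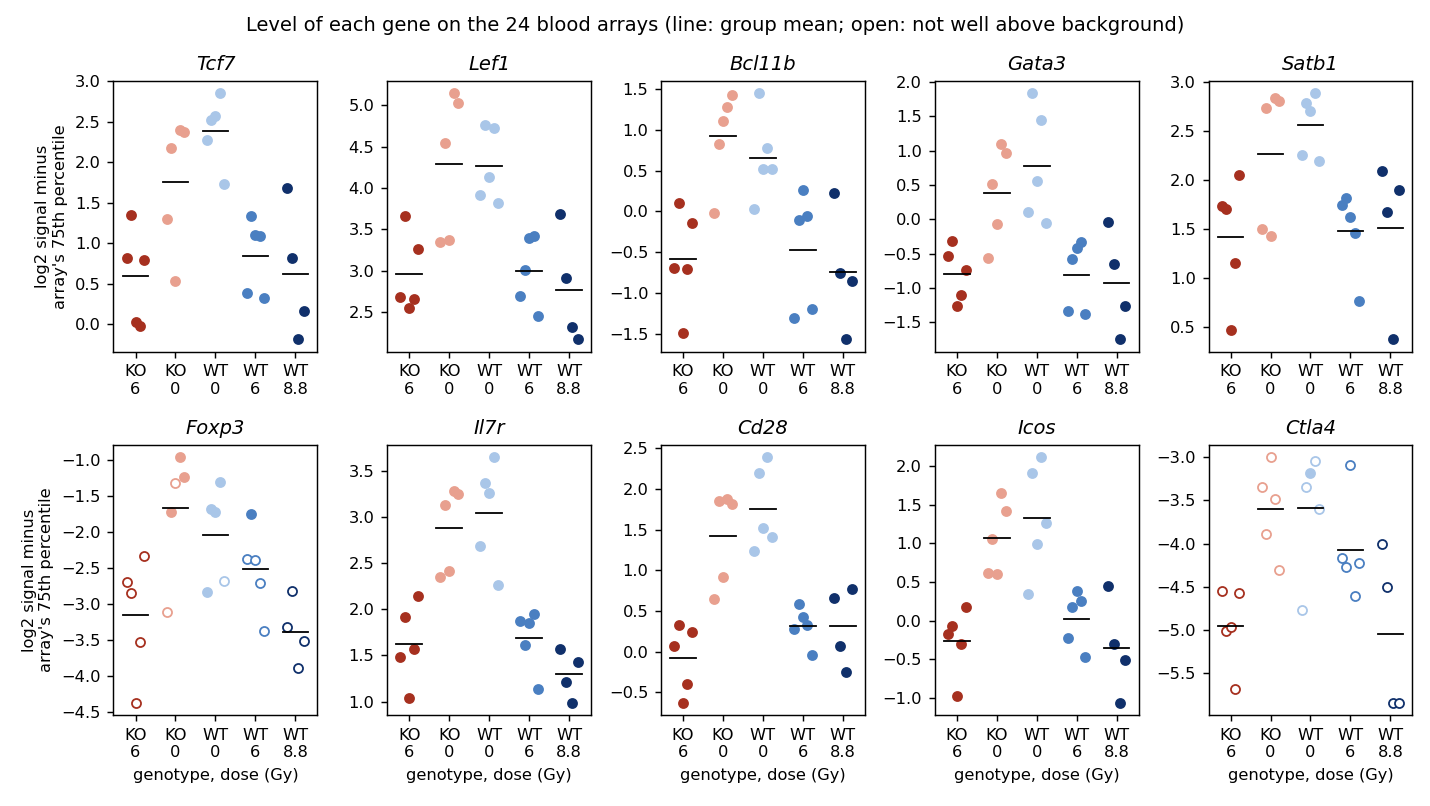
Level of each of the 10 genes on every array, as log2 signal minus the array's 75th percentile (y axis), by genotype and dose in Gy (x axis). Points are mice, lines are group means, and open points were not well above background. The points of Il7r and Cd28 at 6 Gy in knockouts and at 6 and 8.8 Gy in wild type lie below all sham points of their genotype, while Ctla4 is open on 23 of 24 arrays.

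Among the transcription regulators, Tcf7 (probe at mm9 chr11:52066114-52066173, minus strand) had 0.82, 1.34, 0.03, -0.02 and 0.79 in knockout 6 Gy replicates 1 to 5, against 1.30, 2.18, 0.53, 2.39 and 2.37 in knockout sham replicates 1 to 5. Wild-type blood had 2.28, 2.53, 2.57, 2.85 and 1.73 at 0 Gy, 0.39, 1.34, 1.1, 1.09 and 0.32 at 6 Gy and 1.68, 0.82, -0.19 and 0.17 at 8.8 Gy. The groups overlapped in knockouts, where sham replicates 1 and 3 lay within the irradiated range, and did not overlap in wild type. The log2 difference from sham was -1.16 (SE 0.39, adjusted p = 0.0326) in knockouts at 6 Gy, -1.54 (SE 0.39, adjusted p = 0.00734) in wild type at 6 Gy and -1.77 (SE 0.41, adjusted p = 0.00582) in wild type at 8.8 Gy, by limma.

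Lef1 (mm9 chr3:130926200-130926259, plus strand), the partner factor of TCF-1, had 2.68, 3.66, 2.55, 2.66 and 3.26 in knockout 6 Gy replicates 1 to 5, against 3.34, 4.54, 3.37, 5.14 and 5.03 in knockout sham replicates 1 to 5. Its wild-type levels were 3.92, 4.77, 4.13, 4.72 and 3.81 at 0 Gy, 2.70, 3.01, 3.39, 3.42 and 2.46 at 6 Gy and 3.68, 2.92, 2.32 and 2.17 at 8.8 Gy. Sham replicates 1 and 3 of the knockouts lay within the irradiated range, whereas every irradiated wild-type array lay below every wild-type sham array. Its log2 difference was -1.33 (SE 0.37, adjusted p = 0.0123) in knockouts at 6 Gy, -1.27 (SE 0.37, adjusted p = 0.0162) in wild type at 6 Gy and -1.50 (SE 0.39, adjusted p = 0.0123) in wild type at 8.8 Gy, by limma.

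Bcl11b, the T lineage commitment factor, had -0.70, 0.11, -1.49, -0.70 and -0.15 in knockout 6 Gy replicates 1 to 5, against -0.03, 0.83, 1.11, 1.28 and 1.43 in knockout sham replicates 1 to 5. In wild type the levels were 0.03, 1.45, 0.52, 0.78 and 0.51 at 0 Gy, -1.30, -0.10, 0.26, -0.06 and -1.20 at 6 Gy and 0.22, -0.76, -1.57 and -0.85 at 8.8 Gy. Irradiated and sham arrays overlapped in all 3 comparisons. Differences from sham were -1.51 (SE 0.39, adjusted p = 0.00704) in knockouts at 6 Gy, -1.14 (SE 0.39, adjusted p = 0.034) in wild type at 6 Gy and -1.40 (SE 0.41, adjusted p = 0.0234) in wild type at 8.8 Gy, by limma. The lowest arrays of knockout 6 Gy and of wild-type 8.8 Gy blood were replicate 3 of each, which had the highest Alb of their groups (8.18 and 8.47), while the lowest at 6 Gy in wild type, replicate 1, had Alb at -0.58. The part of liver RNA in these values was not tested beyond the covariate above.

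Gata3 (mm9 chr2:9779551-9779610, minus strand), the factor of T cell development and of type 2 helper cells, had -0.53, -0.32, -1.26, -1.11 and -0.74 in knockout 6 Gy replicates 1 to 5, against -0.56, 0.51, -0.07, 1.09 and 0.96 in knockout sham replicates 1 to 5. Wild-type mice had 0.11, 1.84, 0.56, 1.45 and -0.06 at 0 Gy, -1.34, -0.57, -0.42, -0.33 and -1.38 at 6 Gy and -0.04, -0.64, -1.75 and -1.26 at 8.8 Gy. The ranges overlapped in knockouts and at 8.8 Gy in wild type, and were apart at 6 Gy in wild type. The log2 differences were -1.18 (SE 0.40, adjusted p = 0.0343) in knockouts at 6 Gy, -1.59 (SE 0.40, adjusted p = 0.00718) in wild type at 6 Gy and -1.70 (SE 0.42, adjusted p = 0.00856) in wild type at 8.8 Gy, by limma.

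Satb1 (mm9 chr17:51879137-51879196, minus strand), the chromatin organiser, had 1.74, 1.71, 0.48, 1.15 and 2.05 in knockout 6 Gy replicates 1 to 5, against 1.50, 2.73, 1.44, 2.84 and 2.80 in knockout sham replicates 1 to 5. Levels in wild type were 2.26, 2.79, 2.70, 2.89 and 2.20 at 0 Gy, 1.75, 1.82, 1.63, 1.47 and 0.76 at 6 Gy and 2.09, 1.67, 0.38 and 1.90 at 8.8 Gy. Irradiated arrays lay below all sham arrays at both wild-type doses and overlapped with them in knockouts. It passed the test in wild type at 6 Gy, and the tests of the difference between responses did not call it. The differences were -0.84 (SE 0.36, adjusted p = 0.0997) in knockouts at 6 Gy, -1.08 (SE 0.36, adjusted p = 0.0318) in wild type at 6 Gy and -1.06 (SE 0.38, adjusted p = 0.0629) in wild type at 8.8 Gy, by limma.

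Foxp3 (mm9 chrX:7172301-7172360, plus strand), the regulatory T cell factor, was near the limit of detection. It was well above background on 0 of 5 knockout 6 Gy arrays and 3 of 5 knockout sham arrays, and on 4 of 5, 1 of 5 and 0 of 4 wild-type arrays at 0, 6 and 8.8 Gy. Measured levels were -2.70, -2.84, -4.38, -3.53 and -2.34 in knockout 6 Gy replicates 1 to 5, against -3.11, -1.72, -1.31, -0.95 and -1.23 in knockout sham replicates 1 to 5. The wild-type values were -2.83, -1.68, -1.71, -1.30 and -2.68 at 0 Gy, -2.37, -1.75, -2.39, -2.70 and -3.38 at 6 Gy and -3.32, -2.82, -3.89 and -3.51 at 8.8 Gy. The ranges overlapped in all 3 comparisons. Where a group was dim throughout, its arrays were raised to their lowest detected signal. The ratio of group means then leaves out the spread between mice. Sham arrays kept their measured signals, also those not well above background, so the ratios are not strict lower bounds. By these means Foxp3 was 2.16-fold lower in knockout 6 Gy than in knockout sham blood (limma, adjusted p = 0.0135). It was 1.79-fold lower in wild type at 8.8 Gy than at 0 Gy (limma, adjusted p = 0.0444). The 95% intervals of the measured log2 differences were -2.37 to -0.61 and -2.28 to -0.41, and so reach smaller falls. In wild type at 6 Gy its log2 difference was -0.48 (SE 0.42, adjusted p = 0.42), which did not pass. Normexp background correction turned the 8.8 Gy difference to 0.44 (adjusted p = 0.0861), and scan day or slide as a fixed term turned the knockout difference to 0.076. Quantile normalization made it a called fall at 6 Gy in wild type (-1.32, adjusted p = 0.0084).

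Il7r (mm9 chr15:9435976-9436035, minus strand; promoter printed above), the receptor chain for the survival cytokine interleukin-7, had 1.48, 1.91, 1.04, 1.56 and 2.14 in knockout 6 Gy replicates 1 to 5, against 2.35, 3.13, 2.42, 3.28 and 3.25 in knockout sham replicates 1 to 5. Wild-type blood had 2.68, 3.36, 3.26, 3.65 and 2.26 at 0 Gy, 1.87, 1.62, 1.85, 1.94 and 1.14 at 6 Gy and 1.57, 1.22, 0.98 and 1.43 at 8.8 Gy. Irradiated and sham arrays did not overlap in any of the 3 comparisons. The log2 difference was -1.26 (SE 0.28, adjusted p = 0.00231) in knockouts at 6 Gy, -1.36 (SE 0.28, adjusted p = 0.00204) in wild type at 6 Gy and -1.74 (SE 0.29, adjusted p = 0.000517) in wild type at 8.8 Gy, by limma. In linear terms these are 2.39-fold, 2.56-fold and 3.35-fold lower levels.

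Cd28 (mm9 chr1:60830144-60830203, plus strand), the main costimulatory receptor, had 0.07, 0.33, -0.63, -0.40 and 0.24 in knockout 6 Gy replicates 1 to 5, against 0.65, 1.85, 0.92, 1.88 and 1.82 in knockout sham replicates 1 to 5. The wild-type arrays gave 1.24, 2.20, 1.53, 2.40 and 1.41 at 0 Gy, 0.28, 0.59, 0.42, 0.33 and -0.05 at 6 Gy and 0.65, 0.07, -0.25 and 0.77 at 8.8 Gy. Here too the irradiated and sham arrays were apart in all 3 comparisons. Its differences were -1.50 (SE 0.30, adjusted p = 0.00103) in knockouts at 6 Gy, -1.44 (SE 0.30, adjusted p = 0.00216) in wild type at 6 Gy and -1.44 (SE 0.31, adjusted p = 0.0039) in wild type at 8.8 Gy, by limma.

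Icos (mm9 chr1:61057105-61057164, plus strand), the receptor for costimulation of activated cells, had -0.17, -0.07, -0.98, -0.30 and 0.17 in knockout 6 Gy replicates 1 to 5, against 0.62, 1.06, 0.60, 1.65 and 1.42 in knockout sham replicates 1 to 5. Wild type had 0.35, 1.91, 1.0, 2.12 and 1.27 at 0 Gy, -0.23, 0.17, 0.39, 0.26 and -0.48 at 6 Gy and 0.45, -0.30, -1.07 and -0.51 at 8.8 Gy. The knockout groups were apart, and sham replicate 1 of the wild type lay within both irradiated ranges. The log2 differences were -1.34 (SE 0.33, adjusted p = 0.00556) in knockouts at 6 Gy, -1.30 (SE 0.33, adjusted p = 0.00799) in wild type at 6 Gy and -1.68 (SE 0.35, adjusted p = 0.00304) in wild type at 8.8 Gy, by limma. Ctla4 (mm9 chr1:60971801-60971860, plus strand), the inhibitory receptor of the same family, was well above background on 1 of 24 arrays, wild-type sham replicate 3, so it has no test and no fold. Its measured signals were -4.54, -5.01, -4.96, -5.68 and -4.57 in knockout 6 Gy replicates 1 to 5, against -3.34, -3.89, -3.0, -3.49 and -4.31 in knockout sham replicates 1 to 5. In wild type they were -4.77, -3.35, -3.19, -3.05 and -3.60 at 0 Gy, -4.17, -4.28, -3.10, -4.61 and -4.22 at 6 Gy and -4.00, -4.50, -5.84 and -5.84 at 8.8 Gy, and apart from that 1 array they have no order.

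Il7r and Cd28 were the 2 genes apart in all 3 comparisons. Irradiated and sham arrays did not overlap for 3 of the 9 genes in knockouts at 6 Gy, against 15.4% of all genes tested, for 6 in wild type at 6 Gy (18.6% of all) and for 5 at 8.8 Gy (18.1% of all), beside the shares called lower of 10.5%, 10.9% and 9.02%.

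**Figure D2:**
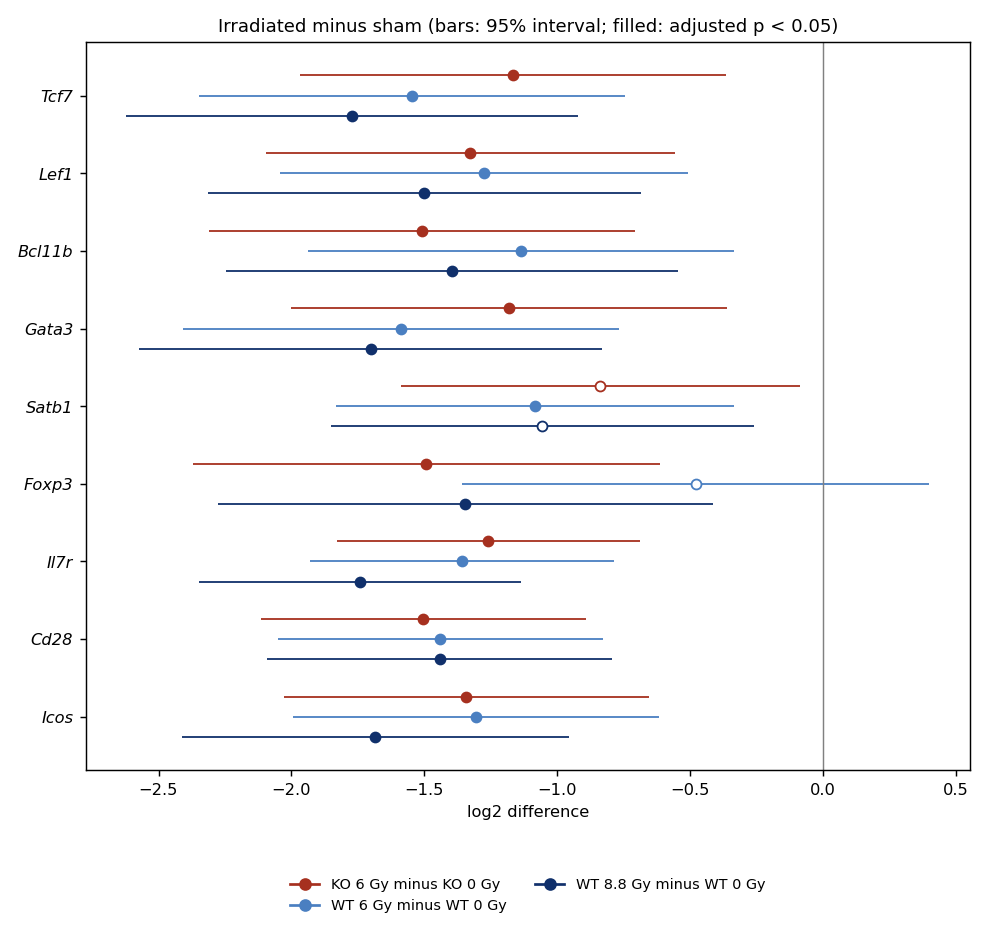
Log2 difference between irradiated and sham blood (x axis) for the 9 tested genes (y axis), in knockouts at 6 Gy (red) and wild type at 6 Gy (light blue) and 8.8 Gy (dark blue). Bars are 95% intervals from limma and filled points have an adjusted p under 0.05. The Foxp3 points in knockouts and at 8.8 Gy rest on irradiated arrays not well above background. All 27 points lie below 0, and the open ones are Satb1 in knockouts at 6 Gy and in wild type at 8.8 Gy, and Foxp3 in wild type at 6 Gy.

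Several of these calls rest on few arrays. Leaving out 1 array at a time kept every difference below 0 and left 6 to 9 of the 9 genes called in knockouts at 6 Gy, and 6 to 8 and 6 to 9 in wild type at 6 and 8.8 Gy. In knockouts, Tcf7 (adjusted p 0.0725 to 0.0922) and Gata3 (0.06 to 0.0985) were no longer called without any one of irradiated replicates 3 and 4 or sham replicates 2, 4 and 5, and Satb1 became called without sham replicate 1 or 3 (0.0471 and 0.0462). At 6 Gy in wild type, Bcl11b was lost without irradiated replicate 1 or 5 or sham replicate 2 or 4 (0.057 to 0.0967). Satb1 was lost there without irradiated replicate 3 or 5 or sham replicates 2, 3 or 4 (0.0527 to 0.0711). At 8.8 Gy, Bcl11b was lost without irradiated replicates 2, 3 or 4 or sham replicate 2 (0.0548 to 0.0814). Foxp3 was lost there without any one of 12 arrays (0.0502 to 0.107): all 4 irradiated arrays, sham replicates 2, 3 and 4, wild-type 6 Gy replicates 1, 3 and 4, knockout 6 Gy replicate 2 and knockout sham replicate 2. Satb1 became called at 8.8 Gy without knockout 6 Gy replicate 3 or knockout sham replicate 3 (0.0493 and 0.0474). Without the pair of nearly equal arrays, 6, 8 and 6 genes were called in knockouts at 6 Gy and in wild type at 6 and 8.8 Gy. The calls lost without that pair were Tcf7 (-1.22, adjusted p = 0.0515) and Gata3 (-1.25, 0.0514) in knockouts, and Bcl11b (-1.39, 0.0678) and Foxp3 (0.0577) in wild type at 8.8 Gy.

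The other probes of these genes, fitted over 19090 probes, gave the same direction with fewer calls. The dimmer Bcl11b probe (mm9 chr12:109148932-109148991, minus strand) was well above background on 17 of 24 arrays, and on 2 of 5 in wild type at 6 Gy, so its size of change there is not given (adjusted p = 0.00889). It gave -1.42 (0.144) in knockouts and -1.48 (0.176) in wild type at 8.8 Gy. The other Tcf7 probe fell by 1.27 (0.025) in wild type at 6 Gy, and gave -0.83 (0.189) at 8.8 Gy and -0.99 (0.0766) in knockouts. The other Lef1 probe, whose ends lie 18162 bases apart in the genome, fell by 1.08 (0.0285) in knockouts, and by 1.03 (0.0329) and 1.38 (0.0131) in wild type at 6 and 8.8 Gy. Of the other Icos probes, 1 gave -0.92 (0.0561) in knockouts, -0.55 (0.242) in wild type at 6 Gy and -0.99 (0.0649) at 8.8 Gy, and 1 was well above background on no array.

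Genotype and dose gave no called difference in these genes. Between knockout and wild-type sham blood 0 of 9 were called, where 0.682% of all genes were called in either direction. Between the genotypes at 6 Gy, 0 of 9 were called (background 0.85%), and between knockouts at 6 Gy and wild type at 8.8 Gy, 0 of 9 (background 0%). The dose step in wild type, 8.8 against 6 Gy, called 0 of 9 (background 0%). In these 4 comparisons no gene of the 9 had an unadjusted p under 0.05, while 2688, 3041, 269 and 2355 of all genes did. The knockout response minus the wild-type response at 6 Gy called 0 of 9 (background 6.08%), and minus the response at 8.8 Gy 0 of 9 (background 0%), with no unadjusted p under 0.05 among the 9 in either.

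The intervals show what size of difference these arrays could have missed. Il7r differed by -0.06 between knockout and wild-type blood at 6 Gy (95% interval -0.63 to 0.51) and by 0.33 at equal lethality (-0.28 to 0.93). Cd28 differed by -0.39 (-1.0 to 0.22) and -0.39 (-1.04 to 0.26). In wild type the dose step gave 0.00 (-0.65 to 0.65) for Cd28 and -0.38 (-0.99 to 0.22) for Il7r. Tcf7 in sham blood differed by -0.64 between knockouts and wild type (-1.44 to 0.17), and its responses differed by 0.38 at 6 Gy (-0.75 to 1.51) and by 0.61 at equal lethality (-0.56 to 1.78). Within scan day 3, which holds 3 knockout 6 Gy arrays and all irradiated wild-type arrays, the median over the 9 genes was -0.21 for knockouts against wild type at 6 Gy and 0.08 against 8.8 Gy, and -0.23 for 8.8 against 6 Gy, with no gene called.

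**Figure D3:**
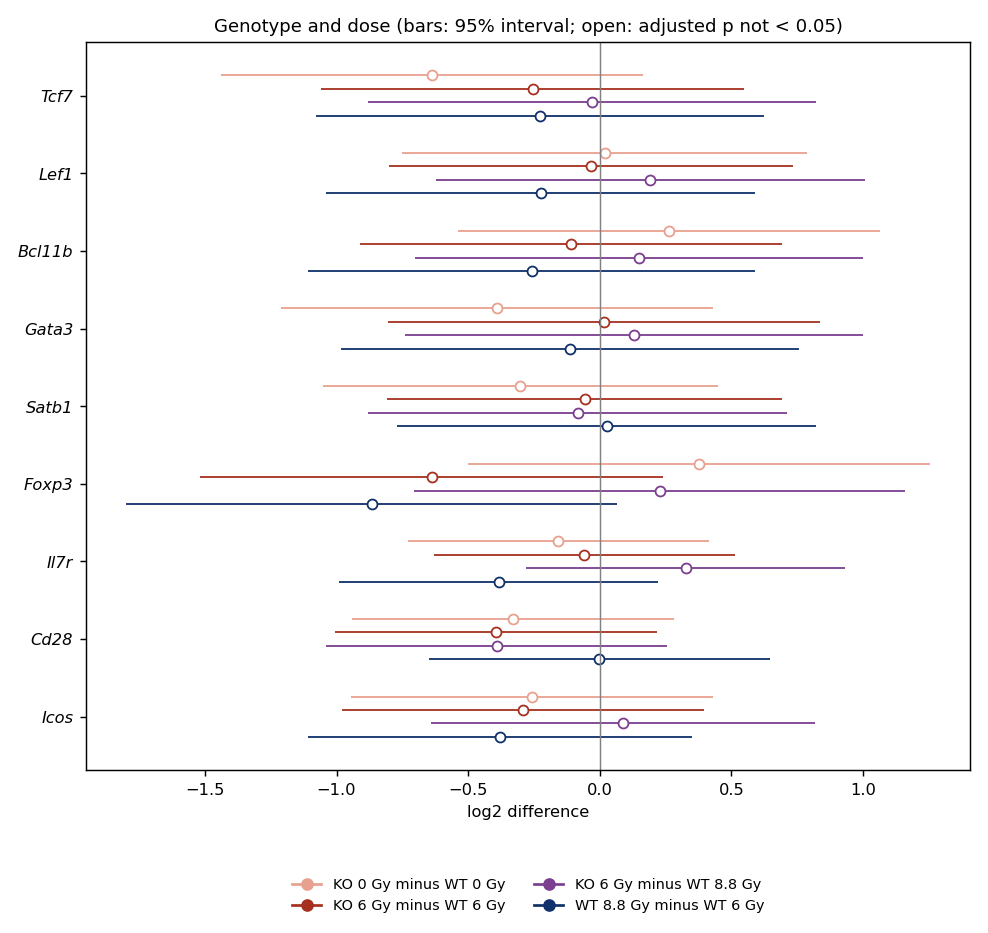
Log2 difference (x axis) of the 9 tested genes (y axis) between genotypes at 0 Gy (pink), at 6 Gy (red) and at equal lethality (purple), and between 8.8 and 6 Gy in wild type (dark blue). Bars are 95% intervals from limma. Every interval crosses 0 and every point is open, that is, none had an adjusted p under 0.05.

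A second fit asked whether these genes changed by more or less than the T cell receptor's own transcripts, by subtracting from every gene each array's mean of Cd3d, Cd3e, Cd3g and Cd247. That mean differed from sham by -1.50 in knockouts at 6 Gy, and by -1.04 and -1.95 in wild type at 6 and 8.8 Gy. A gene at 0 on this scale changed as much as the mean of the 4 chains, which themselves differed: at 8.8 Gy they stood at -2.59 (Cd3g), -2.27 (Cd3d), -1.51 (Cd247) and -1.44 (Cd3e) against sham. Cd3g was itself called lower than their mean there (-0.64, limma, adjusted p = 0.0146), and Cd247 was well above background on 1 of 4 irradiated arrays. Because the CD3 chains fell, most genes lie above 0: 73.6% of all genes were called higher in knockouts at 6 Gy, and 61.6% and 89.6% in wild type at 6 and 8.8 Gy. Against that, 1 of the 9 genes was called higher in knockouts, 0 in wild type at 6 Gy and 2 at 8.8 Gy, and none was called lower. In wild type at 6 Gy, genes were called lower than CD3 under other settings. A mean over a gene's probes called 5 lower (Tcf7, Bcl11b, Gata3, Il7r and Cd28, from -1.17 to -0.61), with a median of -0.61 over the 9 against -0.26. That setting also averaged the probes of the CD3 chains, so the reference changed with it. Before subtraction of CD3, the median of the 9 against sham was -1.358 with that setting and -1.305 without. The hepatocyte covariate called Tcf7 (-0.54) and Gata3 (-0.63) lower, and normexp background correction Cd28 (-0.48).

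Satb1 was the gene called higher relative to CD3 in knockouts at 6 Gy, by 0.66 (SE 0.23, limma, adjusted p = 0.0139). It was called again in wild type at 8.8 Gy, by 0.90 (SE 0.24, adjusted p = 0.00174), and stood at -0.04 (SE 0.23, adjusted p = 0.889) at 6 Gy. The knockout call was lost without knockout 6 Gy replicate 1, the array that goes against its label (0.52, adjusted p = 0.0521), and without the nearly equal pair (0.52, 0.0577). Cd28 was called at 8.8 Gy, by 0.51 (SE 0.21, adjusted p = 0.0246), and lost without irradiated replicate 4 or sham replicate 3 or 5 (0.0518 to 0.12). Bcl11b (0.048) became called at 8.8 Gy without knockout sham replicate 3, and Lef1 (0.0195) without irradiated replicate 4. Without sham replicate 3 or 5, 1 gene was called at 8.8 Gy, and without sham replicate 5, 3 genes (Tcf7, Gata3 and Il7r) were called lower than CD3 at 6 Gy. For the other genes the 95% intervals included 0 in all 3 comparisons, for example -0.19 to 0.67 for Il7r in knockouts and -0.07 to 1.18 for Bcl11b in wild type at 8.8 Gy. Scan day or slide as a fixed term called 0 genes in the 3 comparisons, with Satb1 at 8.8 Gy at 0.90 and 0.84. Normexp background correction left Satb1 (0.17, adjusted p = 0.467) and Cd28 (0.23, 0.261) uncalled at 8.8 Gy. The medians at 8.8 Gy were 0.46 with scan day and 0.54 with slide, against 0.45 without.

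Between 8.8 and 6 Gy in wild type, a comparison added after these values were seen, the CD3 mean differed by -0.91 and the median of the 9 genes by -0.23. Subtracting the CD3 mean restates that gap, so the values that follow describe it and support nothing further. On that scale the 9 genes had a median of 0.68 and 5 of them were called higher at 8.8 Gy, where 36.7% of all genes were: Satb1 at 0.94, Cd28 at 0.91, Gata3 at 0.80, Lef1 at 0.69 and Tcf7 at 0.68. All these arrays were scanned on day 3. With the arrays of that day alone 3 of the 9 were called and 5307 of all 13054 genes. Of the CD3 chains themselves, Cd3d differed by -1.01 (SE 0.30, adjusted p = 0.139) and Cd3g by -1.17 (SE 0.31, adjusted p = 0.114) by limma, and neither passed. Leaving out 1 array at a time gave 2 to 7 called genes, with 2 left without irradiated 8.8 Gy replicate 2 or 6 Gy replicate 2 or 5, and 3 left without 8.8 Gy replicate 1 or 3 or 6 Gy replicate 1. Without the nearly equal pair 2 were called, and Tcf7 (0.60), Lef1 (0.62) and Gata3 (0.68) no longer passed. With slide as a fixed term 0 were called, with a median of 0.92 and 9 of 9 genes above 0.

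**Figure D4:**
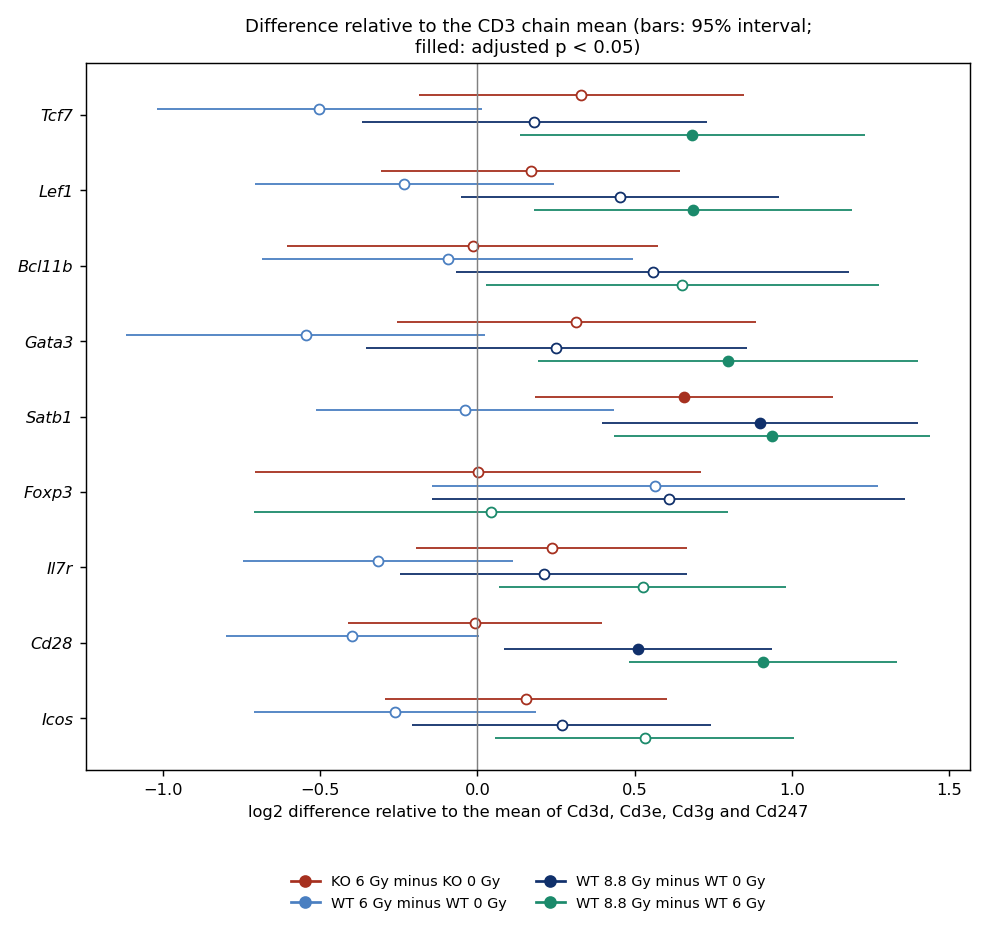
Log2 difference (x axis) of the 9 tested genes (y axis) after subtracting each array's mean of the 4 CD3 chains, in knockouts at 6 Gy (red), wild type at 6 Gy (light blue) and 8.8 Gy (dark blue), each against its sham group, and in wild type at 8.8 against 6 Gy (green). Bars are 95% intervals from limma and filled points have an adjusted p under 0.05. Satb1 is filled in red, dark blue and green, and the 5 filled green points are Tcf7, Lef1, Gata3, Satb1 and Cd28.

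Across mice within a group, the 9 genes varied together. After group means were removed, the 36 pairs had Pearson correlations of 0.56 to 0.89 over the 24 arrays, with a median of 0.76. The mean of the 9 correlated at 0.91 with the mean of the CD3 chains over the same arrays. These points share the array's scale and its content of liver RNA, so the values are a description. Genes outside the 10 whose within-group pattern was among the most like the mean of the 9 included Kbtbd11 (0.98), a gene for a Kelch repeat protein, and Zmat3 (0.96), a gene for an RNA-binding zinc finger protein.

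Most other regulators of T cells were not called, though a larger share of them than of all genes was called lower, and a smaller share higher. Of 26 listed, 25 were tested: 5 were called lower and 1 higher in knockouts at 6 Gy, 6 and 1 in wild type at 6 Gy, and 5 and 1 at 8.8 Gy. All genes tested gave 10.5%, 10.9% and 9.02% called lower, and 12.3%, 15.5% and 7.03% called higher. The list medians were -0.80, -0.32 and -0.61. In knockouts, Zbtb16, the factor of innate-like T cells, rose by 0.97 (adjusted p = 0.00875), Rora, a nuclear receptor, fell by 1.36 (0.0197), and Myb, a progenitor factor, was called lower (0.0111) with 0 of 5 irradiated and 1 of 5 sham arrays well above background, so no fold is given. Rora was well above background on 2 of 5 irradiated and 3 of 5 sham arrays, so the size of its fall is uncertain. In wild type at 6 Gy, Foxo1, which drives Il7r expression in naive T cells, fell by 1.36 (0.00287). Bach2, which restrains effector differentiation, was called lower (0.00503) with 2 of 5 irradiated arrays well above background, so no size is given. Prdm1, the effector factor Blimp-1, was called lower (0.000304) with 0 of 5 irradiated and 4 of 5 sham arrays well above background, so no fold is given. At 8.8 Gy, Tox fell by 1.16 (0.0319), by limma. Myb (0.00886) and Prdm1 (0.0196) were called lower there with 1 of 4 irradiated arrays well above background, so no size is given. Both met the condition for testing only through wild-type sham blood. Their calls against that group, at 6 Gy for Prdm1 as well, therefore add no support. Of the 25, 1 was called in the difference between the genotypes' responses at 6 Gy, where 6.08% of all genes were. It was Tox2, at -2.59 (SE 0.69, limma, adjusted p = 0.0385), with -0.93 (0.179) in knockouts and 1.66 (0.0172) in wild type. With scan day as a fixed term that contrast called 1 of all 13054 genes. Slide as a fixed term and normexp background correction each called 0.

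Other costimulatory and inhibitory receptors split. Of 18 listed, 13 were tested: 7 were lower and 3 higher in knockouts at 6 Gy, 7 and 2 in wild type at 6 Gy, and 6 and 2 at 8.8 Gy. In knockouts Cd5 fell by 2.04 (adjusted p = 0.000161), Cd2 fell by 1.63 (0.000388), and Slamf1 rose by 1.88 (0.00163). In wild type at 6 Gy, Cd5, a damper of T cell receptor signals, fell by 1.89 (0.000562), Tnfrsf25, a death domain receptor, fell by 1.43 (0.00337) and Cd2, an adhesion receptor, fell by 1.14 (0.00737). At 8.8 Gy, Cd2 fell by 2.21 (6.26e-05), Cd5 by 2.46 (7.86e-05) and Tnfrsf25 by 2.17 (0.000231), by limma. The response of Cd27, a survival costimulator, differed between the genotypes at 6 Gy by -2.35 (SE 0.71, limma, adjusted p = 0.0499). It was -1.14 in knockouts and 1.21 in wild type, neither called alone. Cd27 was 1 of 13 called in that contrast, against 6.08% of all genes, and the limits given for Tox2 hold here too. Pdcd1, Lag3, Havcr2, Tigit and Cd40lg, the ligand of CD40, were too dim to test.

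The ligands and cytokine receptor chains were short lists. Of all genes tested, 10.5%, 10.9% and 9.02% were called lower in knockouts at 6 Gy and in wild type at 6 and 8.8 Gy. In the same order 12.3%, 15.5% and 7.03% were called higher. Of 11 genes listed as ligands, 8 were tested, with 1 lower and 2 higher in knockouts at 6 Gy, 1 and 0 in wild type at 6 Gy, and 1 and 3 at 8.8 Gy. The 1 lower gene was Cd40 each time, which is a receptor and not a ligand. Cd274, the PD-1 ligand, rose by 2.15 (adjusted p = 0.00058) in knockouts and by 1.96 (0.0034) in wild type at 8.8 Gy. Cd80, a ligand shared by CD28 and CTLA-4, rose by 1.13 (0.00583) in knockouts and by 1.20 (0.00884) in wild type at 8.8 Gy. Cd40, found on B cells and antigen-presenting cells, was called lower (0.00793) in knockouts, where 1 of 5 irradiated and 3 of 5 sham arrays were well above background. In wild type it was at least 2.17-fold and 3.46-fold lower at 6 Gy (0.00966) and 8.8 Gy (0.00175). Cd40 met the condition for testing only through wild-type sham blood, so its calls against that group add no support. Il7, the ligand of the interleukin-7 receptor, was singled out after its values were seen. It was called higher (0.0314) at 8.8 Gy, where 2 of 4 irradiated and 1 of 5 sham arrays were well above background. It was not called in wild type at 6 Gy (0.113, with 1 of 5 irradiated arrays well above background). Nor was it in knockouts (0.205, with 4 of 5 irradiated and 1 of 5 sham arrays), the irradiated group through which alone it met the condition for testing. Of 10 cytokine receptor chains, all tested, 2 were lower in knockouts, 1 in wild type at 6 Gy and 3 at 8.8 Gy, and none was higher. In knockouts Il15ra fell by 1.22 and Il2ra was called lower (0.0358 each). Il2ra was well above background on 2 of 5 irradiated and 3 of 5 sham arrays, so its size is not given. In wild type, Il6st fell by 1.11 at 6 Gy (0.0124). At 8.8 Gy, Il2rg, the common chain that pairs with the interleukin-7 receptor, fell by 2.46 (0.011), Il2ra by 1.33 (0.0397, with 2 of 4 irradiated arrays well above background) and Il18r1 by 1.19 (0.0461), by limma.

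The CD3 and T cell surface genes, which include Cd2 and Cd5 of the list above, had 9 of 11 lower in knockouts at 6 Gy, 7 in wild type at 6 Gy and 9 at 8.8 Gy. Thy1, the pan-T surface antigen, fell by 3.24 (adjusted p = 6.08e-07) in knockouts, and by 2.35 (4.3e-05) and 3.78 (1.81e-07) in wild type at 6 and 8.8 Gy, by limma. Cd8a was called lower in knockouts (4.54e-05) and in wild type at 8.8 Gy (4.55e-05). There 1 of 5 and 1 of 4 irradiated arrays were well above background, so no size is given. Cd4, singled out after its values were seen, was not called, with -0.69 (0.0764) in knockouts, and -0.46 (0.218) and -0.06 (0.916) in wild type at 6 and 8.8 Gy. Markers of other cells moved on the same arrays. The B cell markers had 4 of 6 lower in each comparison, with mean levels of -1.40 to -0.31 in knockout 6 Gy and 0.24 to 1.45 in knockout sham blood, and of 0.95 to 1.35, -0.60 to 0.54 and -0.81 to -0.45 in wild type at 0, 6 and 8.8 Gy. Basophil markers had 2 of 3 lower in each, and erythroid markers 4 of 6, 4 of 6 and 3 of 6 lower in knockouts at 6 Gy and in wild type at 6 and 8.8 Gy. Neutrophil markers had 1, 3 and 3 of 6 higher and none lower, with mean levels of 3.68 to 4.70 in knockout 6 Gy and 2.68 to 4.35 in knockout sham blood, and of 2.19 to 3.51, 3.10 to 4.16 and 2.97 to 4.12 in wild type at 0, 6 and 8.8 Gy. Of 5 NK cell markers tested, 2, 0 and 1 were lower in knockouts at 6 Gy and in wild type at 6 and 8.8 Gy, of 5 monocyte markers 1, 0 and 1 were lower and 0, 1 and 0 higher, and of 5 platelet markers 1, 0 and 2 were higher. No hepatocyte, heart muscle or eosinophil marker was called in any of the 3 comparisons, at limma's adjusted p under 0.05. The part of these other cells in the values of the 10 genes was not tested, beyond the fit with hepatocyte markers as a covariate.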

How the data were processed

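The authors deposited 1 scanner file per array, with linear intensity per spot. Agilent Feature Extraction 11.5.1 made them, per the file headers and the submitters' processing notes, and the processed signal used here is already background-subtracted. Per the labels' protocols, globin RNA was removed and Cy3-labelled cRNA hybridised. The authors' deposited table holds log2 values. Against the scanner files, a column was log2 of the processed signal shifted by a single constant, so scale and direction are settled and how the constants were chosen is unknown. Its column medians were 7.83, 7.70, 8.06, 7.88 and 7.86 (knockout 6 Gy), 8.09, 7.66, 8.01, 7.69 and 7.63 (knockout sham), and in wild type 7.94, 7.68, 7.73, 7.66 and 7.80 at 0 Gy, 7.75, 7.86, 7.76, 7.65 and 7.70 at 6 Gy, and 7.71, 7.85, 8.04 and 7.97 at 8.8 Gy.

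Controls and 214 probe values with an outlier mark were left out and saturated spots kept. Spots of a probe were averaged (39429 probes). RefSeq accessions (GRCm38.p6 table) named 27495 probes, the files' own names 5760, and 6174 stayed unnamed. Probe coordinates are mm9, as in the files. The brightest probe stood for a gene. Foxp3, Rora, Myb, Prdm1, Cd40, Cd247 and Parp1 met the condition for testing only through wild-type sham blood, so their falls from that group are not independent of the condition. The R package limma (version 3.58.1, under R 4.3.3) was fitted to 5 group means over all 24 arrays, two-sided, with Benjamini-Hochberg adjustment over all 13054 genes tested in a comparison and is the source of all adjusted p and SE (moderated) given. Where a whole group was dim, the fold is the bright group's mean over the dim group's. Each dim array was raised to its lowest detected signal if the probe lay under that. Bright arrays kept their measured signals. The fold is therefore a lower bound for Cd40, whose wild-type sham arrays were all well above background, and not for Foxp3. Named genes outside the 10 are at most the 3 of lowest adjusted p called per list and comparison, the 3 of most similar pattern (1 is not reported here), Parp1 and Alb. A second fit subtracted each array's mean of the 4 CD3 chains. The fits were tested on simulated independent noise, without slide, scan day or liver effects. Planted changes of 2 log2 units, larger than those of the 9 genes, were recovered in 76% to 79% of cases. Of the calls, 4.4% to 6.0% were false. The alternatives were other scalings, background, filters, probes, values, blocks, covariates and arrays. The labels give no pairing of mice by replicate number, and none was used. Of 46 same-number pairs 13 had a correlation over 0.1 (range -0.77 to 0.75). Pairs of unlike number were not compared, so this cannot exclude pairing. The 10 genes and all lists were chosen with earlier results of these data known. The number of arrays limits the precision.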

Additional observations from a re-analysis of the deposited data

How the results depend on the processing

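Median centring, quantile normalization, no filter, only probes well above background on all 24 arrays, 1 mean over a gene's probes, the deposited table, hepatocyte markers as a covariate, only the groups compared, slide as a random block, and leaving out the nearly equal pair kept the number of genes called lower within 1.5 times of 8 in each irradiated-against-sham comparison. Scan day or slide as a fixed block gave 0 in all 3, and within scan day 1 the knockout count was 0, in a comparison of 1 array with 2 that called 0 of all 13054 genes and so says nothing about stability. Normexp background correction gave 5 in knockouts at 6 Gy. It also called 2 genes between knockouts at 6 Gy and wild type at 8.8 Gy and 2 in the difference of those responses, where the main count was 0, and 5767 and 6277 of all 13054 genes. The 2 genes of the first were Lef1 (1.30, adjusted p = 0.0298) and Foxp3 (-0.76, 0.0103). It turned Foxp3 at 8.8 Gy against sham to 0.44, and turned Lef1 relative to CD3 to -0.81 at 8.8 Gy against sham and to -0.23 at 8.8 against 6 Gy. Scan day, slide or day 1 alone turned Foxp3 in knockouts to 0.076. The cause was not tested. With the replicate number as a replicate block, 8 genes were called in knockouts at 6 Gy, and 8 and 7 in wild type at 6 and 8.8 Gy. The block, no filter, and leaving out the nearly equal pair each left 2 genes relative to CD3 between 8.8 and 6 Gy.

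Relative to CD3, knockouts at 6 Gy gave 0 called genes with slide, scan day, day 1, only the groups compared, and without the pair, in place of 1. Wild type at 6 Gy gave 1 (normexp), 5 (mean of probes) and 2 (hepatocyte covariate), all lower, in place of 0. At 8.8 Gy it gave 5 (normexp, Lef1 lower and 4 higher), 4 (probes detected on all arrays) and 0 (slide or scan day) in place of 2. Between 8.8 and 6 Gy it gave 0 (slide), 3 (only the groups compared) and 3 (within day 3) in place of 5. Leaving out 1 array gave 0 to 1, 0 to 3, 1 to 3 and 2 to 7 in these 4 comparisons. The number of genes called higher, as a share of all calls, was 58.8% in wild type at 6 Gy, against 47.9% after quantile normalization and 43.7% after normexp. Wild-type responses have no value within a scan day. Detection limits Foxp3 and Ctla4.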
